A study of Homo sapiens with 4 samples.

Results

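The E2F transcription factors and the retinoblastoma (RB) family of pocket proteins were followed as a set of 10 genes: E2F1, E2F2, E2F3, E2F4, E2F5, E2F7, E2F8, RB1, RBL1 and RBL2. The genes were chosen by symbol, with earlier results of these data known. Each had 1 row among the 20323 gene rows of the series, and all 10 passed the filter on low counts. Poly(A) RNA was sequenced from 5-fluorouracil-resistant HCT-8 cells, which come from a human colorectal carcinoma. Cells of 2 libraries had received a negative control plasmid (control 1 and 2), and cells of the other 2 a plasmid for overexpression of METTL14, a subunit of the enzyme complex that places N6-methyladenosine on mRNA (METTL14 plasmid 1 and 2). Cycloheximide, a blocker of translation, was given to the cells of all 4 libraries at 100 ug/mL, and both groups are drug resistant. No library without cycloheximide or from another line was analysed here, and the labels give no time after transfection.

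E2F factors bind the promoters of genes needed for DNA synthesis and division. In resting and early cycle cells the pocket proteins hold them in check, and phosphorylation of the pocket proteins by cyclin-dependent kinases (CDKs) releases them. E2F1, E2F2 and E2F3 are activators held mainly by RB1. E2F4 and E2F5 act chiefly as repressors with the pocket proteins RBL1 and RBL2, and E2F7 and E2F8 are atypical repressors that bind DNA without a DP partner or a pocket protein. Several genes of the family, E2F1 and RBL1 among them, are E2F targets themselves.

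The promoter sequences of 6 members show which hold the letters of an E2F motif and which do not. The stretches are the 120 bases before the RefSeq start site (GRCh38.p14), 5′ to 3′ on the strand of the gene. Capitals mark matches, on either strand, to the E2F motif, searched as the octamers TTTCCCGC, TTTCGCGC, TTTGCCGC and TTTGGCGC. They are shown for 3 members that fell with the METTL14 plasmid and hold the motif (E2F1, E2F2 and RBL1), for E2F3, which holds it and was not called, for E2F7, which fell and has no match, and for E2F4, which has no match and was not called.
E2F1, chr20:33686386-33686505, minus strand: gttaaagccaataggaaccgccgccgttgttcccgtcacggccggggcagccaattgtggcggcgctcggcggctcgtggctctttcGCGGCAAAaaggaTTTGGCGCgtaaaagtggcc
E2F2, chr1:23531234-23531353, minus strand: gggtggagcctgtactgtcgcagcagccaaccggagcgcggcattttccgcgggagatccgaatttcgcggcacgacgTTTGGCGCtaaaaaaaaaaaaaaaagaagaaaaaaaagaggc
RBL1, chr20:37095998-37096117, minus strand: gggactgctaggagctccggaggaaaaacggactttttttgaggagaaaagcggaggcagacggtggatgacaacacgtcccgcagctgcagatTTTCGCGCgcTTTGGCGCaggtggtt
E2F3, chr6:20401759-20401878, plus strand: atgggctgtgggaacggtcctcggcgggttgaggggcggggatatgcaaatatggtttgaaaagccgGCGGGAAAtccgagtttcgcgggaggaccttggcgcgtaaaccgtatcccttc
E2F7, chr12:77065570-77065689, minus strand: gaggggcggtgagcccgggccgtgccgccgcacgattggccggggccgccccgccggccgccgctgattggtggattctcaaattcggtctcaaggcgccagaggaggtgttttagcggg
E2F4, chr16:67192035-67192154, plus strand: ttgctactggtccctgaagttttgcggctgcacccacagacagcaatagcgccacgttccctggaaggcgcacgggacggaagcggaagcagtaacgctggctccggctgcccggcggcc

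Of the 10 members, 8 had a window of 300 bases (250 before and 50 after a start) in the RefSeq table. E2F1 and RBL1 each held 2 matches that did not overlap each other, at bases -33 and -20 and at bases -26 and -16 from the start. E2F2 held 1 match at base -42 and E2F3 held 1 at base -53. Across all 35116 windows of the table, 3.31% held at least 1 match. Counted by gene, 6.6% of the 10128 tested genes with a window held a match in any of their windows. The second window of E2F3, at a start 1708 bases inside the gene model, held none, and neither did the windows of E2F4, E2F7 and RBL2. Those of RBL2 belong to starts 494 and 1642 bases inside its gene model, so the start of that model was not covered. The window listed for RB1 lies 172724 bases inside the gene model and does not bear on its main promoter. TTTGAA, the core of the cell cycle homology region (CHR) motif of late cell cycle genes, was found on either strand in 15.2% of all windows. Among the members it was found in the windows of E2F3 (base -65) and RBL2 (base 25), where it overlapped no E2F match. A match describes these letters only and does not show binding.

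Total counts lay between 19206661 and 20161082 per library. METTL14 itself had 472 and 598 counts with the control plasmid, against 7593 and 8516 with its own, where reads of the plasmid and of the cells' own gene cannot be told apart. The 2 controls differed from each other far more than the 2 METTL14 libraries did (chi-square per degree of freedom 28.8 against 3.29 over genes). The labels describe 2 independent experiments and do not say whether the libraries of a group came from separate cultures. The p-values measure the spread between these libraries, and how far that spread is technical is not known. An exact permutation test of 2 against 2 libraries cannot go below p = 0.333, and the tests below rest on a spread shared across genes by edgeR. All 9 colorectal epithelial markers looked up, such as EPCAM and CDX2, were above a mean of 1 CPM (counts scaled to library size, with TMM factors) in each group. Their summed level was 18252 and 11916 CPM with the control plasmid, against 9378 and 9156 CPM with METTL14. Of 7 leukocyte markers, PTPRC, CD3E and ITGAM stayed below 1 CPM in every library. Others of the list were expressed: 2 reached a mean of 1 CPM with the control plasmid and 3 with METTL14. The summed level of the list was 20.5 and 19.6 CPM with the control plasmid, against 70.5 and 70.2 CPM with METTL14. Fibroblast (13.2 to 20.04 CPM) and endothelial markers (0.411 to 1.90 CPM) were low in sum. The mitochondrial share of counts was 5.99 and 6.26% with the control plasmid, against 9.85 and 10.25% with METTL14. The part of these shifts in the results was not tested.

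Within the family, the activators E2F1 and E2F2, the atypical repressors E2F7 and E2F8 and the pocket genes RB1 and RBL1 fell with METTL14, and E2F5 and the pocket gene RBL2 rose. E2F8 fell to 28.1% and RBL1 to 30.1% of the control level, and E2F5 rose 2.22-fold. E2F3 and E2F4 did not pass the test. In all, 6 of 10 members were lower and 2 higher at an edgeR adjusted p below 0.05, where 28.1% of the 12700 genes tested were lower, 27.0% higher and 55.1% called in either direction. The median log2 fold change of the members was -0.98, against -0.01 over all tested genes. Members and the gene lists below were chosen with earlier results of these data known, so such counts and medians are no independent evidence. For all 10 members the control and METTL14 values did not overlap, which was so for 79.8% of tested genes. Without METTL14 plasmid 1 the number of lower genes in all was 2307 and not 3569. In each fit without a library, its group has a lone library that is assumed to vary like the other group, so a call made without a control rests on the spread of the closely matched METTL14 pair and is no sign of stability. In bulk RNA, fewer cells of a kind (such as cells in S phase) and less RNA per cell cannot be told apart.

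**Figure D1:**
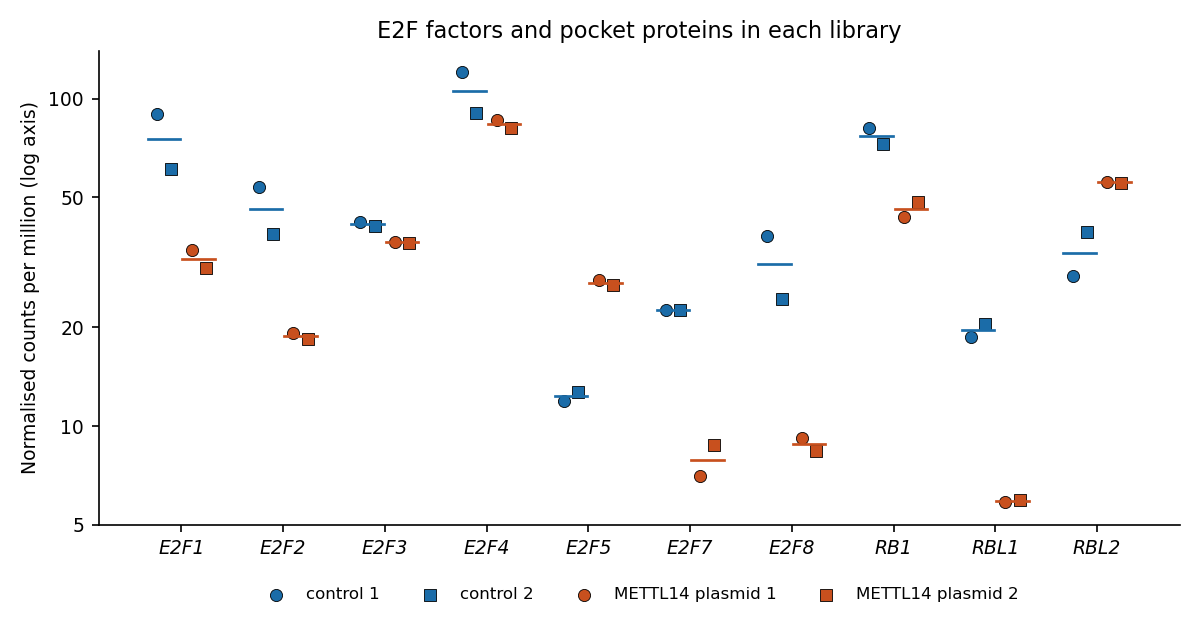
Normalised counts (CPM, log axis) of the 10 genes in each of the 4 libraries; circles and squares are replicates 1 and 2, blue is the control plasmid, orange the METTL14 plasmid, and lines are group means. E2F1, E2F2, E2F7, E2F8, RB1 and RBL1 lie lower with METTL14, E2F5 and RBL2 lie higher, and the controls stand apart from each other for E2F1, E2F2, E2F4, E2F8 and RBL2.

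Among the activators, E2F1 (ENSG00000101412, chromosome 20, 33675683 to 33686404, minus strand), which drives entry into S phase, had 1727 and 1188 counts with the control plasmid, against 669 and 616 with METTL14. As normalised values these were 89.8 and 61.0 CPM against 34.4 and 30.4 CPM. Both METTL14 libraries lay well under the lower control, and the controls lay further apart than the METTL14 libraries. The mean fell from 75.4 ± 20.4 to 32.4 ± 2.78 CPM (SD, n = 2; a log2 change of -1.22, SE 0.187, edgeR adjusted p = 0.00144). E2F2 (ENSG00000007968, chromosome 1, 23506430 to 23531220, minus strand), a close relative with the same partners, had 53.7 and 38.5 CPM with the control plasmid, against 19.2 and 18.4 CPM with METTL14. Its fall was nearly the same size (log2 fold change -1.29, SE 0.172, edgeR adjusted p = 0.000789), and its pattern over the 4 libraries was the nearest to E2F1 of any member. E2F3 (ENSG00000112242, chromosome 6, 20401906 to 20493715, plus strand), whose gene has 2 start sites that a count per gene cannot separate, had 42.0 and 40.9 CPM against 36.5 and 36.2 CPM. The replicates were tight and the METTL14 values were the lower ones, by a small amount. The change was not called (log2 fold change -0.19, 95% interval -0.43 to 0.06, edgeR adjusted p = 0.167), and the interval leaves out a fall of the size seen for E2F1 or E2F2. The difference between the members' changes was not tested.

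E2F4 (ENSG00000205250, chromosome 16, 67192169 to 67198918, plus strand), the main E2F of resting cells, had 2314 and 1757 counts with the control plasmid, against 1677 and 1646 with METTL14, or 120.4 and 90.2 against 86.2 and 81.3 CPM. Control 2 lay much nearer to the METTL14 libraries than to control 1. The change was not called (log2 fold change -0.33, 95% interval -0.67 to 0.01, edgeR adjusted p = 0.0902). Its size rested on the control used: -0.53 without control 2, where it was called on the spread of the METTL14 pair alone, and -0.10 without control 1, where it was not. E2F5 (ENSG00000133740, chromosome 8, 85177225 to 85217158, plus strand), which pairs mainly with RBL2, was the member that rose most. It had 230 and 248 counts with the control plasmid, against 543 and 545 with METTL14, or 11.96 and 12.7 against 27.9 and 26.9 CPM. The replicates were close in both groups, and the groups lay far apart (log2 fold change 1.15, SE 0.127, edgeR adjusted p = 0.000378). On the GENCODE 29 models, 22.1% of the exon bases of E2F5 lie opposite those of C8orf59 on the other strand. Whether counting used strand was not stated in the labels, so reads of the 2 genes may not be told apart there. C8orf59 had 349 and 409 counts with the control plasmid, against 240 and 290 with METTL14. The part of shared reads in the change of E2F5 was not tested.

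The atypical repressors E2F7 and E2F8 act late in S phase to switch off genes such as E2F1. E2F7 (ENSG00000165891, chromosome 12, 77021247 to 77065580, minus strand) had 436 and 441 counts with the control plasmid, against 137 and 177 with METTL14, or 22.7 and 22.6 against 7.04 and 8.74 CPM. Here the controls were almost equal and the METTL14 libraries were the more spread. The level fell (log2 fold change -1.52, SE 0.157, edgeR adjusted p = 0.000308). E2F8 (ENSG00000129173, chromosome 11, 19224063 to 19241620, minus strand) had 733 and 476 counts with the control plasmid, against 179 and 170 with METTL14, or 38.1 and 24.4 against 9.20 and 8.399 CPM. This was the strongest fall of the family, 3.55-fold (log2 fold change -1.83, SE 0.224, edgeR adjusted p = 0.000564), and 1.76% of all tested genes had a lower log2 fold change. The log2 fold change of E2F8 was -1.47 without control 1 and -2.12 without control 2. Without control 1 the falls of RBL1 (-1.79) and E2F7 (-1.51) were larger, so the first place of E2F8 rests on that library.

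The pocket genes went different ways. RB1 (ENSG00000139687, chromosome 13, 48303726 to 48599436, plus strand), the retinoblastoma tumour suppressor, had 1561 and 1421 counts with the control plasmid, against 848 and 981 with METTL14, or 81.2 and 72.9 against 43.6 and 48.5 CPM. The gap between groups was several times the gap within either, and RB1 fell to 59.7% of control (log2 fold change -0.74, SE 0.112, edgeR adjusted p = 0.00135). RBL1 (ENSG00000080839, chromosome 20, 36996349 to 37095995, minus strand), the pocket protein of cycling cells, had 359 and 399 counts with the control plasmid, against 114 and 120 with METTL14, or 18.7 and 20.5 against 5.86 and 5.93 CPM. It fell 3.32-fold (log2 fold change -1.73, SE 0.151, edgeR adjusted p = 0.000184), with the smallest adjusted p of the 10 members. RBL2 (ENSG00000103479, chromosome 16, 53433977 to 53491649, plus strand), the pocket protein of resting cells, had 551 and 762 counts with the control plasmid, against 1083 and 1121 with METTL14, or 28.7 and 39.1 against 55.6 and 55.4 CPM. The METTL14 libraries were level with each other and above both controls (log2 fold change 0.71, SE 0.155, edgeR adjusted p = 0.00669). Without control 1 the log2 fold change of RBL2 was 0.51 and without control 2 it was 0.95, with the spread taken from the METTL14 pair alone. Exon bases of RBL2 overlap those of AKTIP on the opposite strand over 12.4% of their length. AKTIP had 332 and 367 counts with the control plasmid, against 392 and 424 with METTL14. The part of shared reads in the change of RBL2 was not tested.

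The spread between the controls was not even across the family. Control 2 was lower than control 1 by a log2 difference of -0.64 for E2F8, -0.56 for E2F1, -0.48 for E2F2 and -0.42 for E2F4, and higher by 0.45 for RBL2. For these genes control 2 lay on the side of the METTL14 libraries. The controls were within 0.15 of each other for RB1 (-0.15), RBL1 (0.13), E2F5 (0.09), E2F3 (-0.04) and E2F7 (0.00). Falls of RBL1 and E2F7 and the rise of E2F5 were thus measured against level controls, and those of E2F1, E2F2 and E2F8 against controls that differed. Over all tested genes the median difference between the controls was 0.01.

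**Figure D2:**
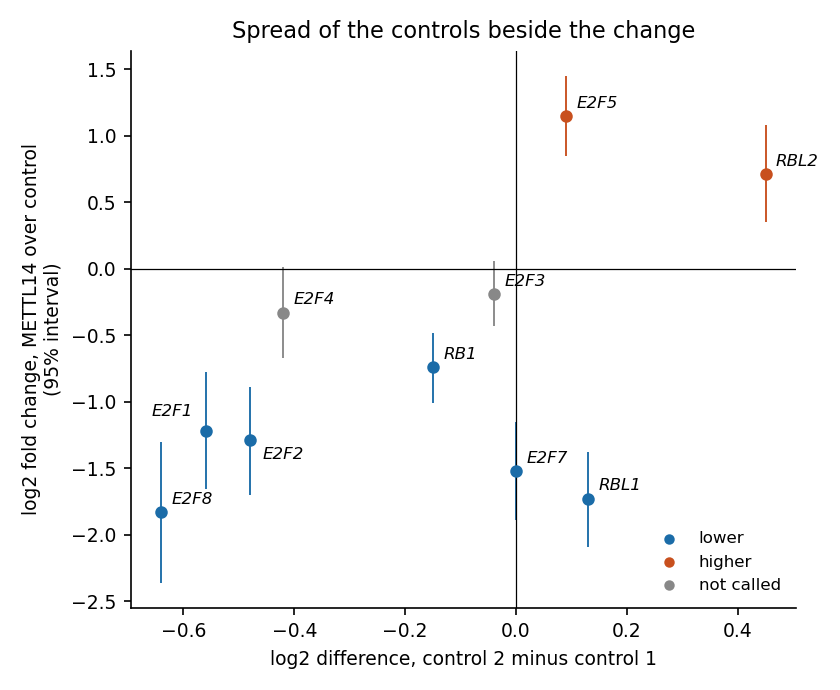
For each of the 10 genes, the log2 difference of control 2 minus control 1 (x axis) beside the log2 fold change of METTL14 plasmid over control plasmid with its 95% interval (y axis); blue is lower, orange higher and grey not called. E2F8, E2F1, E2F2 and E2F4 sit to the left, RBL2 to the right, and E2F7, RBL1, E2F5, E2F3 and RB1 near the middle.

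To compare levels between genes, CPM was divided by the length of the longest coding transcript in GENCODE 29. On this scale (CPM per kb) the order in the controls was E2F4 (50.2 ± 10.2, SD, n = 2), E2F1 (30.1 ± 8.15), RB1 (16.1 ± 1.22), E2F8 (8.89 ± 2.75), E2F2 (8.88 ± 2.08), E2F3 (8.73 ± 0.160), RBL2 (6.91 ± 1.51), E2F5 (6.53 ± 0.286), E2F7 (3.95 ± 0.00586) and RBL1 (3.44 ± 0.224). The control libraries of E2F8, E2F2 and E2F3 overlapped, as did those of RBL2 and E2F5, and RBL2 also overlapped E2F8 and E2F2, so the order within these sets is not settled. With METTL14 the order was E2F4 (39.95 ± 1.63), E2F5 (14.5 ± 0.364), E2F1 (12.9 ± 1.11), RBL2 (11.3 ± 0.0373), RB1 (9.60 ± 0.723), E2F3 (7.66 ± 0.0470), E2F2 (3.62 ± 0.114), E2F8 (2.50 ± 0.160), E2F7 (1.37 ± 0.210) and RBL1 (1.04 ± 0.00890). No neighbours in this order overlapped. E2F4 led and RBL1 came last in both groups. With the length of all merged exons in place of the longest transcript, E2F5 (13.6) and E2F1 (12.9) overlapped between libraries with METTL14.

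Shares within a library do not depend on how libraries are scaled. The first shares are of the summed CPM per kb of E2F1 to E2F8 (E2F6 included, which is no member). The activators E2F1, E2F2 and E2F3 took 38.3 and 36.1% with the control plasmid, against 26.5 and 25.9% with METTL14. That fall came from E2F1 (25.0 and 21.8% to 14.5 and 13.5%) and E2F2 (7.20 and 6.63% to 3.90 and 3.93%). The share of E2F3 was higher with METTL14 (6.15 and 7.70% to 8.11 and 8.46%). E2F4 and E2F5 took 44.3 and 44.5% with the control plasmid, against 58.9 and 58.8% with METTL14, and most of that difference came from E2F5, which went from 4.402 and 6.02% to 15.6 and 15.8%. E2F7 and E2F8 took 10.3 and 9.74% against 4.05 and 4.34%. The groups did not overlap for any of these shares. The sum itself was 143.8 and 111.8 CPM per kb with the control plasmid, against 94.9 and 90.1 with METTL14. Among the pocket genes, RB1 took 65.0 and 56.8% of the sum with the control plasmid, against 42.4 and 45.1% with METTL14, and RBL1 12.6 and 13.4% against 4.801 and 4.65%. RBL2 took 22.4 and 29.8% with the control plasmid, against 52.8 and 50.3% with METTL14, where it was the largest share. The ratio of RBL2 to RBL1 was 1.78 and 2.21 with the control plasmid, against 11.01 and 10.8 with METTL14. These are shares of RNA and not of protein.

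**Figure D3:**
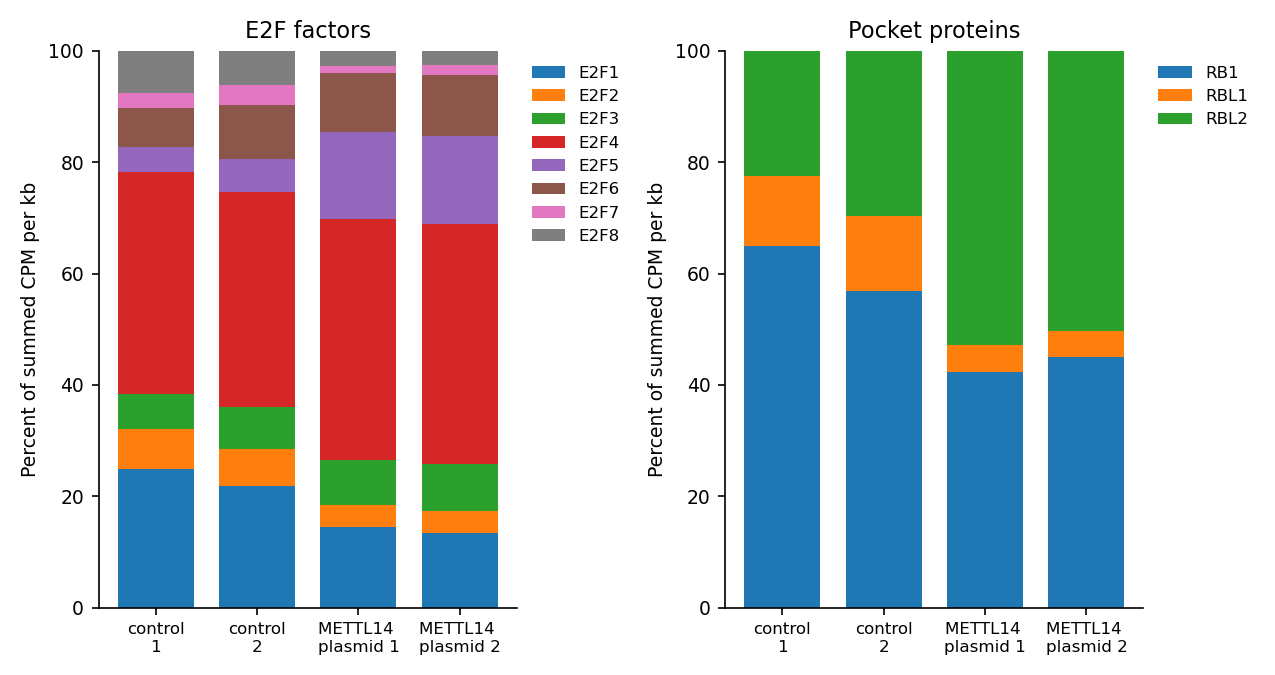
Share of each gene in the summed CPM per kb of the E2F factors (left, E2F6 included) and of the pocket genes (right), in percent, for each library. E2F5 (15.6 and 15.8% with METTL14) and RBL2 (52.8 and 50.3%) are wider in the METTL14 bars, and E2F1, E2F8 and RBL1 narrower.

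E2F1 to E2F6 bind DNA as dimers with a DP partner. TFDP1, the main partner, fell from 316.9 ± 32.5 to 153.9 ± 1.76 CPM (SD, n = 2; a log2 change of -1.04, SE 0.109, edgeR adjusted p = 0.000317). TFDP2, the other partner, rose from 42.6 ± 5.80 to 84.0 ± 1.202 CPM (a log2 change of 0.98, SE 0.121, edgeR adjusted p = 0.000586). The DP genes therefore moved in opposite directions, as E2F1 and E2F5 or RBL1 and RBL2 did. E2F6, a repressor that works with Polycomb proteins, had 35.1 and 37.2 CPM against 34.6 and 34.04 CPM and was not called (log2 fold change -0.07, 95% interval -0.33 to 0.18). TFDP3 was listed at 0 in every library.

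MuvB is the core that joins RBL2 or RBL1 with E2F4 in the DREAM repressor complex, and joins MYBL2 (B-MYB) and FOXM1 to activate genes of division. Of 9 genes of this group, 6 were lower and 3 were not called (28.1% of all tested genes were lower), with a median log2 fold change of -1.05. MYBL2, itself an E2F target, fell from 304.2 ± 74.7 to 72.8 ± 3.62 CPM (a log2 change of -2.06, SE 0.171). FOXM1 (-1.16, SE 0.138), MYBL1 (-1.58, SE 0.176), the MuvB subunits LIN9 (-1.35, SE 0.166) and LIN54 (-1.05, SE 0.134) and the histone-binding RBBP4 (-0.82, SE 0.0939) fell too. The MuvB subunits LIN52 (-0.05) and LIN37 (0.53, edgeR adjusted p = 0.0726) and DYRK1A, the kinase that starts DREAM assembly (0.04), were not called. LIN37 was called higher without either control (0.55 and 0.51), on the spread of the METTL14 pair. LIN52 was at 0.00 when library totals alone set the scale. LIN37 shares 65.4% of its exon bases, and RBBP4 21.3%, with another gene of the files, which leaves their counts less certain.

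The kinases that phosphorylate pocket proteins and their inhibitors also differed. Of 10 genes of the kinase group, 6 were lower and 4 were not called (median log2 fold change -0.98), where 55.1% of all tested genes were called and 28.1% were lower. CCND1 (cyclin D1) fell from 847.5 ± 246 to 346.6 ± 6.11 CPM (a log2 change of -1.29, SE 0.185), and its kinase CDK4 from 283.6 ± 3.28 to 106.8 ± 5.77 CPM (-1.41, SE 0.0987). CCNE2, a cyclin E (-3.08, SE 0.213), CCNA2, cyclin A2 (-1.85, SE 0.134), the phosphatase CDC25A, which activates CDKs (-1.98, SE 0.253), and CDK2 (-0.66, SE 0.108) fell as well. CCNE1, the other cyclin E, was at 0.17, CDK6 at -0.08 and CCND3 at 0.08, none of them called. The symbol CCND2 (cyclin D2) has 2 rows in the files. The row described there as cyclin D2 had 4 and 1 counts with the control plasmid, against 0 and 1 with METTL14. The row with the higher counts, which entered the list and the test, is described as another transcript (ENSG00000285901) and shares exon bases with TIGAR, so its values may not be those of cyclin D2. It had 182 and 46 counts with the control plasmid, against 118 and 62 with METTL14, and was not called (-0.38). With controls so far apart it was called in opposite directions, higher without control 1 (0.95) and lower without control 2 (-1.06). CCND3 went from 0.31, called, without control 1 to -0.12 without control 2. CDK4, CCNE2 and this CCND2 row share 51.9, 47.5 and 49.8% of their exon bases with TSPAN31, INTS8 and TIGAR.

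Of 6 tested CDK inhibitor genes, 3 were higher, 1 lower and 2 not called (median log2 fold change 0.56), where 27.0% of all tested genes were higher, 28.1% lower and 55.1% called. Those that rose were all of the CIP/KIP family, which binds CDK2 complexes: CDKN1A (0.55, SE 0.127), CDKN1B (0.60, SE 0.103) and CDKN1C (1.36, SE 0.193). Of the INK4 family, which blocks CDK4 and CDK6, CDKN2C fell (-1.30, SE 0.149). CDKN2D (-0.26) and CDKN2B (0.56) were not called, and CDKN2B had at most 19 counts in a library. CDKN2A had at most 6 counts and was not tested.

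**Figure D4:**
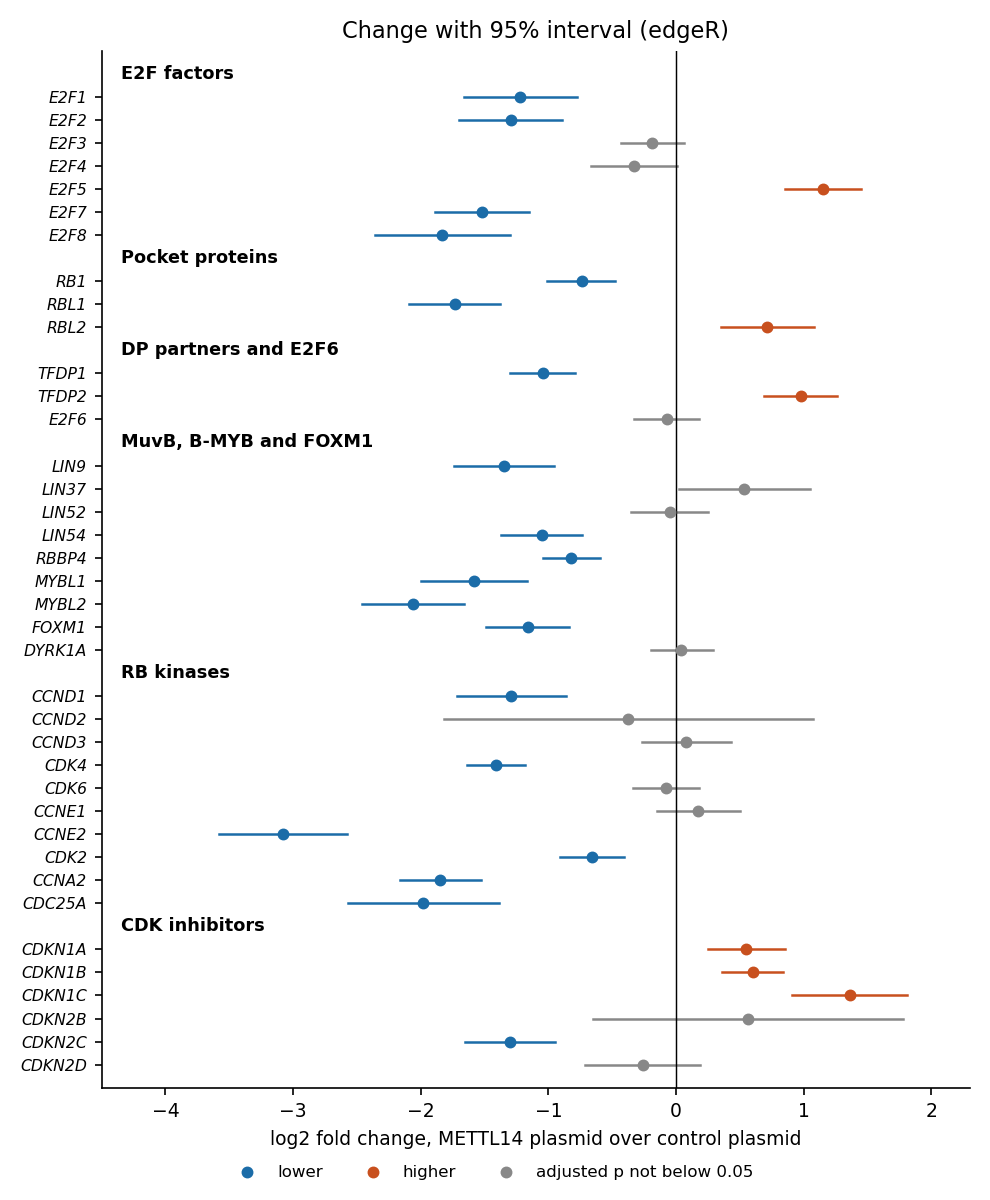
Log2 fold change of METTL14 plasmid over control plasmid with its 95% interval from edgeR, for the E2F factors, the pocket genes and 4 groups of partners and regulators; blue is lower, orange higher and grey not called at an adjusted p below 0.05. CCND2 is the row of the transcript that shares exons with TIGAR. RBL1, TFDP1 and CDKN2C lie below 0, and RBL2, TFDP2 and CDKN1C lie above it.

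The listed target genes of the family fell. All 30 listed targets of E2F at the start of S phase were lower (median log2 fold change -2.03, range -2.83 to -0.71), as were all 16 listed DREAM targets of G2 phase and mitosis (median -1.36, range -3.29 to -1.02), where 28.1% of all tested genes were lower. The genes at the lower and upper end of the first range share 53.7 and 21.0% of their exon bases with another gene of the files. This leaves their counts less certain, and other genes of the list share exon bases too. The first count was 29 when library totals alone set the scale, and also without control 2 or without either METTL14 library. Among those with the smallest p in the first list were CDC6, a loader of the replicative helicase (-2.09, SE 0.106), and BRCA1 (-2.22, SE 0.117). In the second those with the smallest p were HMMR (-2.86, SE 0.116), CCNB1, cyclin B1 (-1.96, SE 0.0976), and DLGAP5 (-2.34, SE 0.127), which act in mitosis. The lists were drawn up with earlier results of these libraries known, so their direction is no independent evidence. In the first list 28 of 30 genes were lower in control 2 than in control 1 (median log2 difference -0.40), as E2F1, E2F2 and E2F8 were. In the second the median difference was -0.06. Of 25 genes of the first list with a promoter window, 15 held the E2F motif, and of 13 of the second, 1 did. Among all 10128 tested genes with a window, 6.6% held it.

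Corepressors that pocket proteins recruit were mixed: 6 of 12 were lower, 2 higher and 4 not called (median -0.31), and 55.1% of all tested genes were called, 28.1% lower and 27.0% higher. SUV39H1, a histone methyltransferase (-1.26, SE 0.136), DNMT1, a DNA methyltransferase (-1.08, SE 0.138), and HDAC1, a histone deacetylase (-0.52, SE 0.0958), fell. The call of HDAC1 was lost without either METTL14 library (-0.54 and -0.50). Without METTL14 plasmid 1 there were 3 lower and 0 higher corepressors by edgeR, and without METTL14 plasmid 2 there was 1 higher. Of 7 apoptosis genes described as E2F1 targets, 3 were lower, 1 higher and 3 not called, a share called near that of all genes, and their median (0.06) and mean (-0.01) differ in sign. Without control 2, 3 of these genes were higher. BCL2L11 (BIM) rose (0.77, SE 0.119), and TP73 (-0.70, SE 0.154) fell. Of 6 genes of E2F turnover, 5 were lower and 1 not called (median -0.78), with FBXO5, an inhibitor of the anaphase-promoting complex and an E2F target (-1.85, SE 0.190), SKP2, the F-box protein of an E2F1 ligase (-0.93, SE 0.0981), and SKP1 (-0.62, SE 0.0926).

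**Figure D5:**
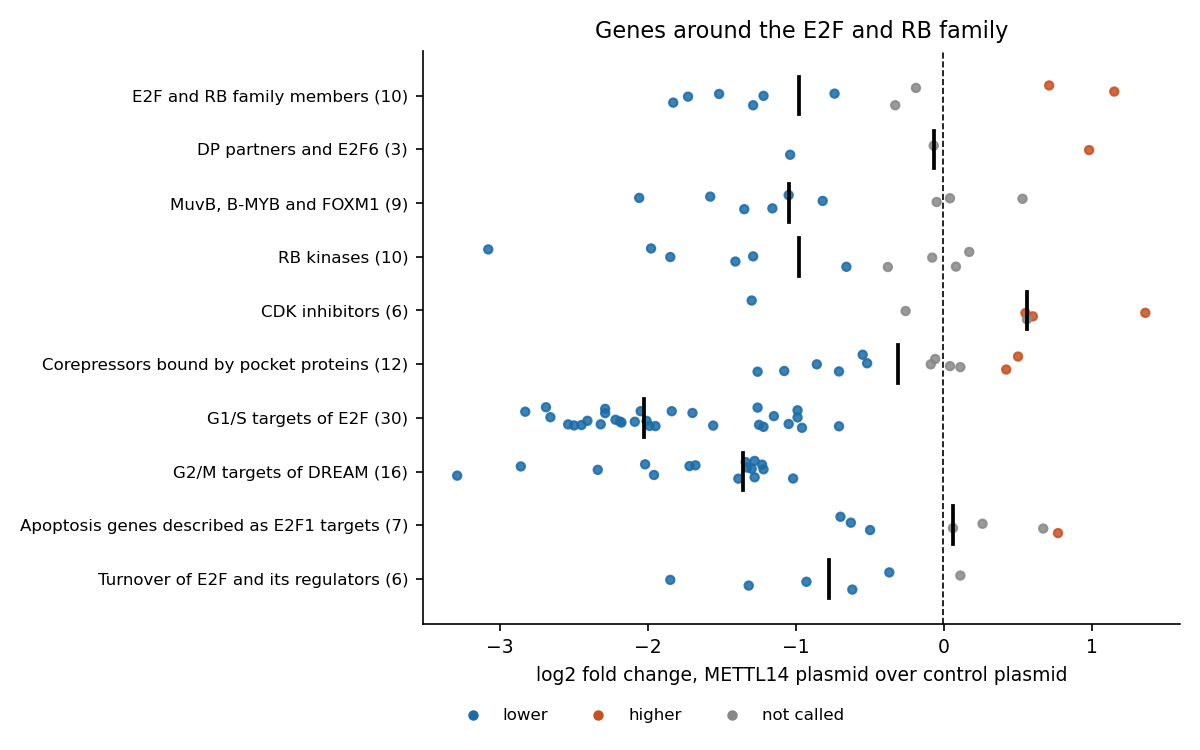
Log2 fold change of METTL14 plasmid over control plasmid for each tested gene (points, blue lower, orange higher, grey not called) of the family and of 9 lists around it, with the number of tested genes in brackets; black bars are list medians and the dashed line is the median of all tested genes (-0.01). The E2F targets at the start of S phase (median -2.03) and the DREAM targets (-1.36) lie wholly below 0, and the CDK inhibitors (0.56) and apoptosis genes (0.06) have medians above it.

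The likeness of patterns was measured as the root mean square difference of centred log2 CPM over the 4 libraries, among 12041 other named genes of at least 1 CPM. Among the nearest to E2F1 were UTP4 (0.030) and ZNF283 (0.035), and nearest to E2F8 were DSCC1 (0.032), PKMYT1 (0.042) and MRTO4 (0.045). The genes nearest to RB1 were ENDOG (0.0079), GAS2L3 (0.011) and PMVK (0.019), and those nearest to RBL2 were MROH8 (0.0036), DCUN1D3 (0.018) and PROC (0.019). MROH8 (1.25 to 2.52 CPM) and PROC (1.82 to 3.56 CPM) were near the floor of 1 CPM, so their small differences are uncertain. Within the family the nearest pairs were E2F1 with E2F2 (0.062), E2F3 with E2F4 (0.15), E2F7 with RBL1 (0.15) and E2F5 with RBL2 (0.24), and the farthest was E2F5 with E2F8 (1.5). With 4 libraries in 2 groups many genes share a pattern by their group difference alone.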

How the data were processed

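Each library came as a table of expected counts for genes, not normalized, as the authors deposited it. The submitters' processing notes list fastp, Bowtie2, HISAT2, StringTie and RSEM without versions, and hg18. The kit was NEBNext Ultra, per the labels' protocols. GENCODE release 29 (GRCh38) holds 20171 of the 20323 identifiers and gave positions, lengths and exon overlaps; the annotation behind the counts is otherwise unclear. After rounding, genes passing filterByExpr (minimum count 10) were tested with edgeR 4.0.16 under R 4.3.3, using TMM and the robust quasi-likelihood fit, with Benjamini-Hochberg adjustment over 12700 genes at 0.05. The fit was tested on simulated counts that gave all genes and both groups the same biological spread, unlike the libraries here. The SE is the size of the log2 fold change over the root of its F statistic. Likeness used log2 CPM with a prior count of 2. Members and lists were chosen with earlier results of these data known. Named genes are the members, METTL14, all genes of the DP, MuvB, kinase and inhibitor lists, the 3 of smallest p in each other list and the 3 nearest patterns. A few genes that this rule or a marker list names are not reported here. Alternatives were DESeq2 1.42.0, limma 3.58.1, 2 other scalings, no filter, no robust step, the replicate number as a term, and leaving out each library. Figures were drawn in Python 3.11.15. Promoter windows came from RefSeq (GRCh38.p14).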

Additional observations from a re-analysis of the deposited data

How the results depend on the processing

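The 6 falls and 2 rises of the members kept direction and call under the 7 alternatives that used all 4 libraries, and E2F3 stayed uncalled in them. Directions also held in the 4 fits that left out a library, but there the other group alone gives the spread within groups, so the calls are no sign of stability. E2F4 ranged from -0.53 (called) to -0.10 when a library was left out, which gave 6 to 7 lower members. Leaving out a library gave 2307 to 4575 lower genes in all, 0 to 1 higher genes in the MuvB list, 0 to 2 higher kinases, 0 to 2 higher and 3 to 7 lower corepressors, 29 to 30 lower E2F targets, 1 to 3 higher apoptosis genes and 0 to 1 higher turnover genes. The higher apoptosis genes numbered 2 with DESeq2 size factors, 2 with no filter and 2 with limma-voom. Signs turned for LIN52 (0.00 on library totals), the CCND2 row (-1.06 to 0.95; 0.04 without METTL14 plasmid 2), CCND3 (-0.12 to 0.31) and CDK6 (-0.17 to 0.00) when a library was left out. The cause was not tested. The replicate numbers do not pair the libraries by label, and same-numbered libraries deviated together only weakly (correlation 0.044 over genes). With the replicate block E2F4 was called (-0.32), members were 2 higher and 7 lower, apoptosis genes 2 higher, and all genes 3797 higher and 3903 lower. Depth limits genes with few counts, such as CDKN2A and CDKN2B.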

Other observations

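The E2F motif was searched in the RefSeq promoter windows of 10128 tested genes. Of the 673 genes with a match, 40.4% were lower and 18.0% higher with METTL14 (median log2 fold change -0.22). Of the 9455 without a match, 28.5% were lower and 26.7% higher (median -0.02). The median GC content of the windows was 64.7% with a match and 65.0% without. Seen the other way, 9.17% of lower genes, 4.58% of higher genes and 6.19% of genes not called held the motif. These shares are given without a test, the lists of E2F targets described above are among these genes, and most genes that fell held no match in this window.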
